A study of Rattus norvegicus with 8 samples.

Results

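In INS-1 cells, 46 forskolin-induced genes had a forskolin fold with an A-CREB adenovirus that was close to, or above, their fold without virus. INS-1 is a rat insulinoma line that secretes insulin and is used to study beta cells. They were chosen by their measured values in the authors' A-CREB table, on 3 conditions: a mean of at least 1 FPKM (fragments per kilobase of transcript, scaled to library size) over its 4 libraries, no value of 0, and a forskolin over DMSO ratio with A-CREB of at least 0.67 times the ratio without virus. That table lists 566 genes, of which 387 met the level conditions, and 58 of these (15%) also met the ratio. Another 12 of the 58 were left out by name, mostly integrated stress response genes and transporter or channel genes, which leaves 46 genes. Since these values selected them, their folds and levels in the A-CREB table are descriptions and support nothing.

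The A-CREB table holds 4 libraries, all at 11 mM glucose. They came from cells that carried the A-CREB adenovirus for 2 days and from cells without virus. Each kind received 10 uM forskolin, or DMSO as the vehicle, during 2 h. A second table holds 4 libraries without virus, from cells held at 20 mM or 2.8 mM glucose over 3 days, with forskolin at 10 uM or DMSO during 2 h. Each group had 1 library of 1 cell line, so no difference has a replicate check, no test was possible and every value describes these libraries only. Since the control cells carried no virus, the effect of infection and that of A-CREB cannot be told apart. Every gene of this level had a forskolin fold of at least 2 without virus in the A-CREB table, and at 2.8 mM in the glucose table. Genes below that bound were not analysed here. Of 16 markers of the beta cell fixed for this description, Pdx1, MafA and Nkx2-2 are in the A-CREB table. None of 24 markers of other cell types is in it. The glucose table holds 4 of the 16 beta cell markers and 1 of the 24 others, Alb, a liver marker. Both tables list only forskolin-induced genes, so the absence of a marker says nothing about its expression. In such bulk samples fewer cells with a transcript and less transcript per cell cannot be told apart.

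Forskolin is a plant diterpene that switches on adenylyl cyclase, the enzyme that makes cAMP. In beta cells cAMP acts through protein kinase A, which phosphorylates the transcription factor CREB at cAMP response elements (CREs), and through the exchange factor Epac, which needs no CREB. A-CREB is a dominant-negative protein with an acidic extension that pairs with CREB and keeps it off DNA. Genes of the CREB response, such as the orphan receptor gene Nr4a1, the kinase gene Sik1 and Crem, are the known targets of such a block.

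Most of the 46 genes had modest forskolin folds in both conditions. Their median fold was 1.86 with A-CREB and 2.18 without virus, and the ratio of the 2 folds had a median of 0.768 (range 0.672 to 1.32). Genes of this level below the ratio, less 11 with a name that the rule leaves out, are the 318 others used for comparison. In these 318 genes the medians were 1.30 with A-CREB and 3.25 without virus, and the ratio had a median of 0.363. Every listed gene had a fold of at least 2 without virus, while no such bound held with A-CREB. A lower fold with A-CREB is therefore partly built into the listing, and these ratios do not measure the size of a block. A no-virus fold under 3 was found for 43 of the 46 genes (93.5%), against 139 of the 318 others (43.7%) and 51.4% of all 387. The set lies at the weak end of the forskolin response without virus, with 3 exceptions, Runx1, Zc3h12a and Mfsd2a. Since the no-virus fold is the divisor of the ratio that chose the genes, this is partly built in and is not read as a result. At least a 2-fold value with A-CREB was reached by 16 of the 46 genes, beside 22% of all 387, although all had it without virus. For 9 genes the fold with A-CREB was at least as large as without virus, and for the rest of the 46 it was lower. For scale, the fold of Nr4a1 was 2.56 with A-CREB and 12.9 without virus, that of Sik1 was 5.38 and 119.6, and that of Crem was 2.81 and 62.4, in the same order. At the edge of the rule stood Nkx2-2 with a ratio of folds of 0.672, Best1 with 0.676 and Nrbp2 with 0.683. Just outside it were Taf1d with 0.6696, Gna13 with 0.668 and Ubxn7 with 0.659, so membership at this edge depends on small differences.

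**Figure D1:**
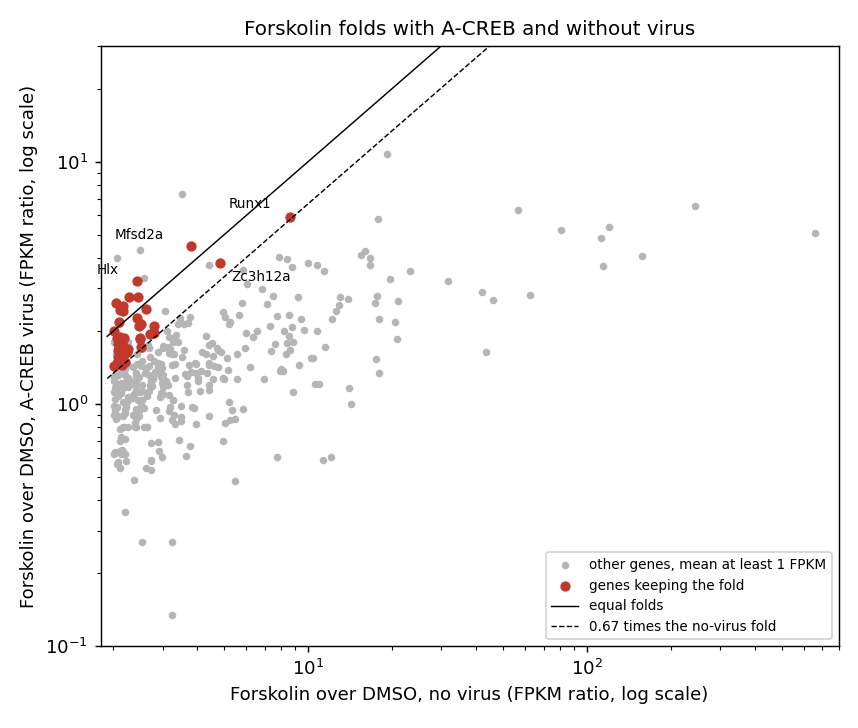
Forskolin over DMSO ratio with A-CREB virus (vertical, log scale) against the ratio without virus (horizontal, log scale), 1 point per gene with a mean of at least 1 FPKM and no value of 0. The 46 genes (red) lie on or above the dashed line at 0.67 times the no-virus fold and mostly at its left end, while most grey points lie below it. Grey points above the line are genes left out by name.

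The promoters were searched for the letters that CREB binds, since sequence played no part in choosing the genes. RefSeq promoters on the rat build GRCr8, from 250 bases before to 50 bases after a gene's start, were matched for 40 of the 46 genes and 246 of the 318 others. The full CRE, TGACGTCA, was found in 3 of the 40 promoters (7.5%), in 22 of the 246 others (8.94%) and in 1.91% of all 27457 promoters, 1 a gene. Its half-site TGACG, searched on both strands and also counted inside a full CRE, was found in 18 of the 40 (45%), in 44.3% of the others and in 21.96% of all promoters. The shares in the 46 genes and in the other forskolin-induced genes thus lay close together, and both were above that of all promoters. Base composition moved with this: the median GC content was 64.5% in the 40 promoters, 63.2% in the others and 52.3% in all, and its part in the shares was not tested. The AP-1 site TGACTCA was in 2 of 40 promoters, 2.85% of the others and 4.53% of all, and the TATA box TATAAA in 2 of 40, 7.32% and 14.3%. The stress element ATTGCATCA, bound by C/EBP and ATF factors, was in 0 of 40 promoters, 0 of the 246 others and 0.193% of all. The endoplasmic reticulum stress element, named ERSE, was in 1 of 40, 0 of the 246 others and 0.0765% of all. The promoters of Nr4a1, Crem and Sik1, known CREB targets, held 0 full CREs and 4, 2 and 2 half-sites in the same search. In this window at the first listed start, the full CRE thus does not mark every known target. Other starts of these 3 genes are not covered by that search. A match says only that these letters are present.

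Because they hold the full CRE, the 3 promoters of Vps37b, Cbx8 and Ccnl1 are shown. Vps37b encodes a subunit of the ESCRT-I complex of endosomal sorting, Cbx8 a Polycomb protein that reads methylated histones, and Ccnl1 cyclin L1, which acts in transcription and splicing. The sequences run 5′ to 3′ on the gene's strand, with CREs and half-sites in capitals. Vps37b is given for the 150 bases before its start, chr12:38220823-38220972 on the plus strand, and Cbx8 for the 150 bases before its start, chr10:104795501-104795650 on the minus strand. Ccnl1 is given for 30 bases around the site, chr2:152507500-152507529 on the minus strand, since its listed start lies inside the gene's RefSeq span.
Vps37b: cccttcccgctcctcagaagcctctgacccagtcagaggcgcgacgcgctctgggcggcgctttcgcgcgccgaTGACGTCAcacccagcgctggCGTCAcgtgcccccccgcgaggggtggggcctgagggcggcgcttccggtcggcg
Cbx8: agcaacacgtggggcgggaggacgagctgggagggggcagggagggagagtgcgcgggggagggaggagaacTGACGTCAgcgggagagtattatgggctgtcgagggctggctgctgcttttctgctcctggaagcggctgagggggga
Ccnl1: tggtggcgtggTGACGTCAgggcggaagcc
The CRE begins 76 bases before the start in Vps37b, 78 before in Cbx8 and 50 before in Ccnl1. Vps37b had 114 FPKM in forskolin and 68.9 FPKM in DMSO with A-CREB, against 55.3 and 25.4 FPKM without virus, so both levels were higher with A-CREB. Cbx8 had 29.7 and 15.9 FPKM with A-CREB, against 44.3 and 17.8 FPKM without virus, and Ccnl1 had 46.7 and 26.4 FPKM with A-CREB, against 50.9 and 24.6 FPKM without virus. The 3 genes thus share the element and differ in level. Forskolin was above DMSO in each pair of libraries, but the listing and the rule fix this, so it is no result. Among the 40 genes and 246 others with a promoter, the median ratio of folds was 0.350 in the 25 with a full CRE. It was 0.390 in the 102 with a half-site only and 0.405 in the 159 with neither. The median no-virus fold moved too, with 3.69, 3.01 and 2.64 in the same order, and its part in these ratios was not tested.

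Another 3 promoters are shown because they hold half-sites without a full CRE, together with an ERSE or a TATA box. Zfand2a encodes a zinc finger protein of the proteasome that is known as a heat shock factor target, Cebpb a basic leucine zipper factor and Errfi1 a feedback inhibitor of the EGF receptor. Capitals mark half-sites, and also an AP-1 site and an ERSE in Zfand2a and a TATA box in Cebpb and Errfi1. The stretches are chr12:20275200-20275434 for Zfand2a, chr3:176816855-176817004 for Cebpb and chr5:166606691-166606840 for Errfi1, all on the plus strand of GRCr8.
Zfand2a: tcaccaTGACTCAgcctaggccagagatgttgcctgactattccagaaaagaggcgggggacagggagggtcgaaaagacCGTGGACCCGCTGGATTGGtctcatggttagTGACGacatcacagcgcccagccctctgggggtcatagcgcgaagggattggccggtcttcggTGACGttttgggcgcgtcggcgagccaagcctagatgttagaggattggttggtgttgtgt
Cebpb: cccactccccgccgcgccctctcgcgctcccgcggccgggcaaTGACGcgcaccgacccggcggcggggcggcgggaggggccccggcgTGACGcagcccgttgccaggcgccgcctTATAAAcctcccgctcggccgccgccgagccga
Errfi1: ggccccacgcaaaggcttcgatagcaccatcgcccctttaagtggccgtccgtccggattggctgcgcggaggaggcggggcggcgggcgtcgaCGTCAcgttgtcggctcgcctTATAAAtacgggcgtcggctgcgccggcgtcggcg
Cebpb was the 1 gene among 28 CREB early response genes of this level that belongs to the 46. It had 65.7 FPKM in forskolin and 31.3 FPKM in DMSO with A-CREB, against 83.2 and 29.7 FPKM without virus, a fold of 2.10 with A-CREB and 2.80 without. Errfi1 had 67.4 and 34.2 FPKM with A-CREB, against 132 and 47.3 FPKM without virus. Its fold of 1.97 with A-CREB thus stood on lower levels in both libraries. Zfand2a was higher with A-CREB in both libraries, with 363 and 187 FPKM with A-CREB, against 246 and 91.2 FPKM without virus.

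**Figure D2:**
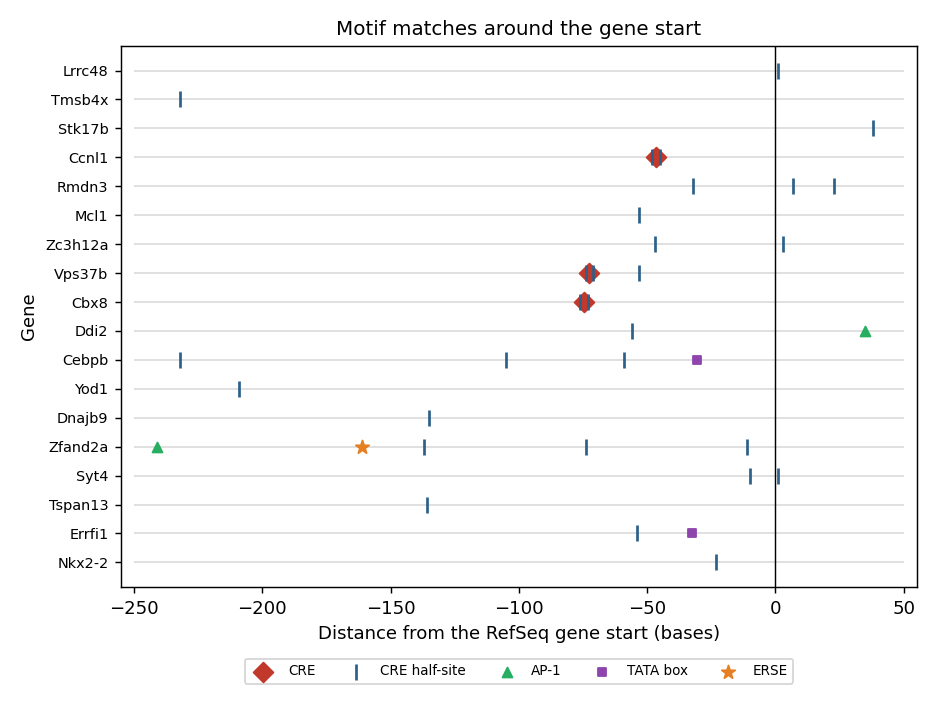
Positions of motif matches in the 18 promoters with a CRE half-site, by distance in bases from the RefSeq gene start (horizontal), 1 line per gene with the highest ratio of folds at the top. Full CREs (diamonds) lie 50 to 78 bases before the start in Ccnl1, Vps37b and Cbx8, and half-sites (ticks) are spread over the window.

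A fold of at least 0.67 times the no-virus one did not go with a close level in every gene. In DMSO, 9 of the 46 genes were lower with A-CREB by 1.5 times or more, 10 were higher by that much and 27 lay within it. Among all 387 genes of this level, 15.8% were lower in DMSO and 35.1% higher. In forskolin, 14 of the 46 were lower with A-CREB by 1.5 times or more, 5 were higher and 27 within, beside 65.1% lower and 8.01% higher among all 387. The rule used these same values, so nothing is read from the difference. In the level plot, 8 genes were lower with A-CREB under both treatments, 20 were within 1.5 times under both, and 4 were higher under both. The remaining 14 genes passed the bound under 1 treatment.

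**Figure D3:**
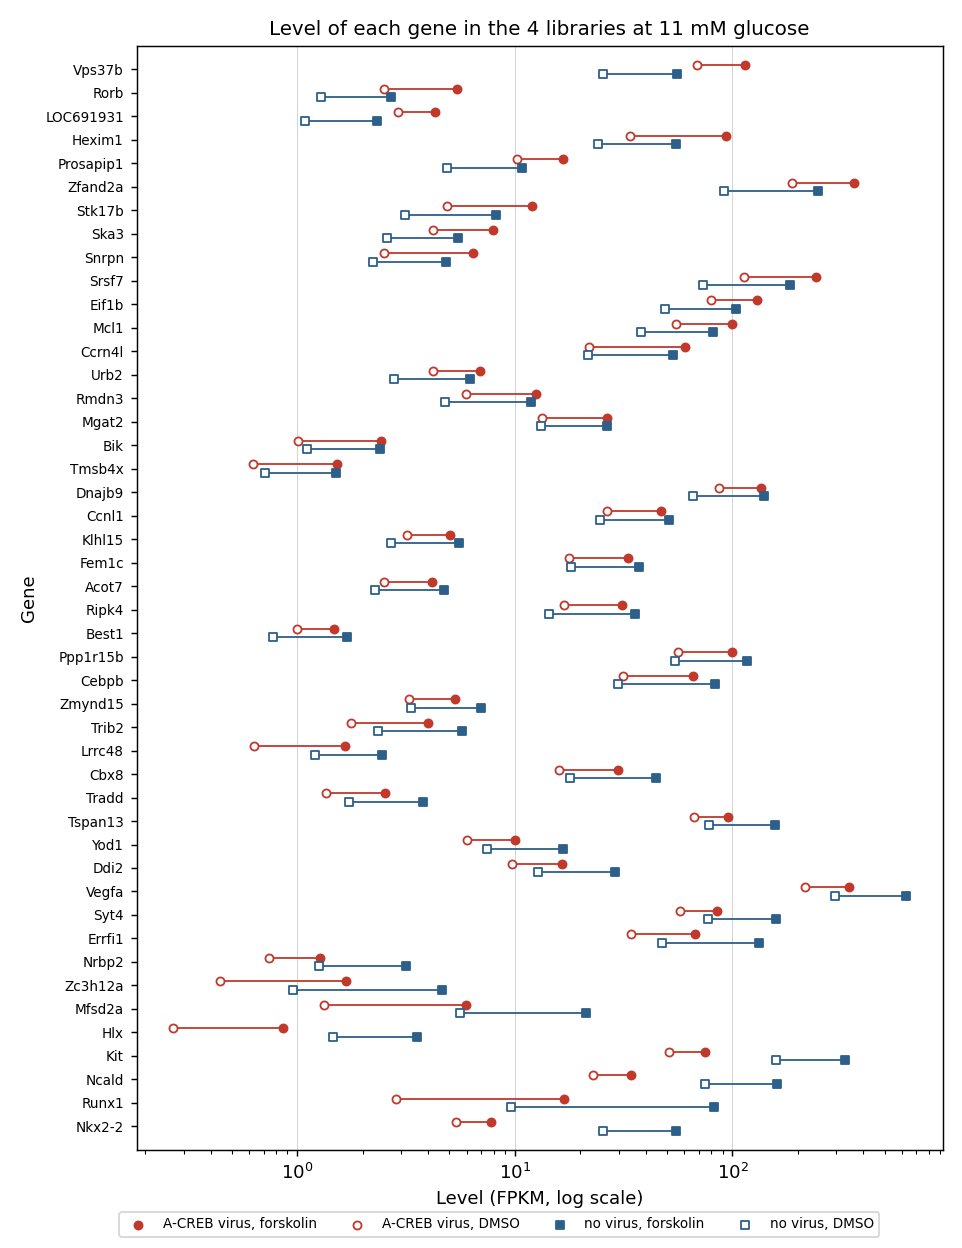
Level in FPKM (log scale) of each of the 46 genes in the 4 libraries at 11 mM glucose, with A-CREB virus in red circles and no virus in blue squares, forskolin filled and DMSO open. Genes are ordered by the A-CREB over no virus ratio in forskolin, and each line joins DMSO to forskolin of 1 condition. The red pair lies far left of the blue pair for the 6 lowest genes, from Nkx2-2 up to Mfsd2a, and right of it at the top.

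The lowest A-CREB over no virus ratios in forskolin were those of Nkx2-2, Runx1, Ncald and Kit. Nkx2-2, a homeodomain transcription factor needed for beta cell identity, had 7.73 FPKM in forskolin and 5.35 FPKM in DMSO with A-CREB, against 54.9 and 25.5 FPKM without virus. Runx1, a Runt-domain transcription factor, had 16.8 and 2.85 FPKM with A-CREB, against 82.6 and 9.58 FPKM without virus. Its folds, 5.89 with A-CREB and 8.62 without virus, were the highest of the set in both conditions. Kit, the receptor of stem cell factor, had 74.7 and 51.2 FPKM with A-CREB, against 329 and 159 FPKM without virus. Ncald, a neuronal calcium sensor, had 34.2 and 22.7 FPKM with A-CREB, against 160.04 and 74.4 FPKM without virus. In Nkx2-2, Kit and Ncald the forskolin level with A-CREB lay below even the DMSO level without virus, and in Runx1 it lay above. The ratio in forskolin was 0.141 for Nkx2-2, 0.203 for Runx1, 0.214 for Ncald and 0.227 for Kit, beside 0.0817 for Nr4a1, the CREB target named above.

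Mfsd2a, a transporter of lysophosphatidylcholine lipids, had 5.93 FPKM in forskolin and 1.32 FPKM in DMSO with A-CREB, against 21.2 and 5.59 FPKM without virus. Its fold was 4.49 with A-CREB and 3.79 without virus, so the fold was higher although both levels were lower. With 1 FPKM added to every value its ratio of folds was 0.887 in place of 1.18, so the direction of the fold difference turns with that setting. Zc3h12a, an RNase that degrades cytokine transcripts, had 1.67 and 0.440 FPKM with A-CREB, against 4.60 and 0.951 FPKM without virus. Nrbp2, a pseudokinase, had 1.28 and 0.743 FPKM with A-CREB, against 3.17 and 1.26 FPKM without virus. Hlx, a homeobox transcription factor, had 0.861 and 0.269 FPKM with A-CREB, against 3.53 and 1.46 FPKM without virus, and had a ratio of folds of 1.32, the highest of the set without a pseudocount. With 1 FPKM added to every value it was 0.795, below 1. The spacing of low values in the table allows an estimate of the reads behind such numbers. The smallest whole reads that fit Hlx were 4 and 1 with A-CREB, and 11 and 5 without virus. Its fold with A-CREB, 3.21, then has a 95% exact counting interval of 0.316 to 157, which covers counting error only. Lrrc48, known as Drc3 in RefSeq and a part of the axonemal dynein regulatory complex, had 1.65 and 0.632 FPKM with A-CREB, against 2.46 and 1.202 FPKM without virus, and was lower past 1.5 times in DMSO only.

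**Figure D4:**
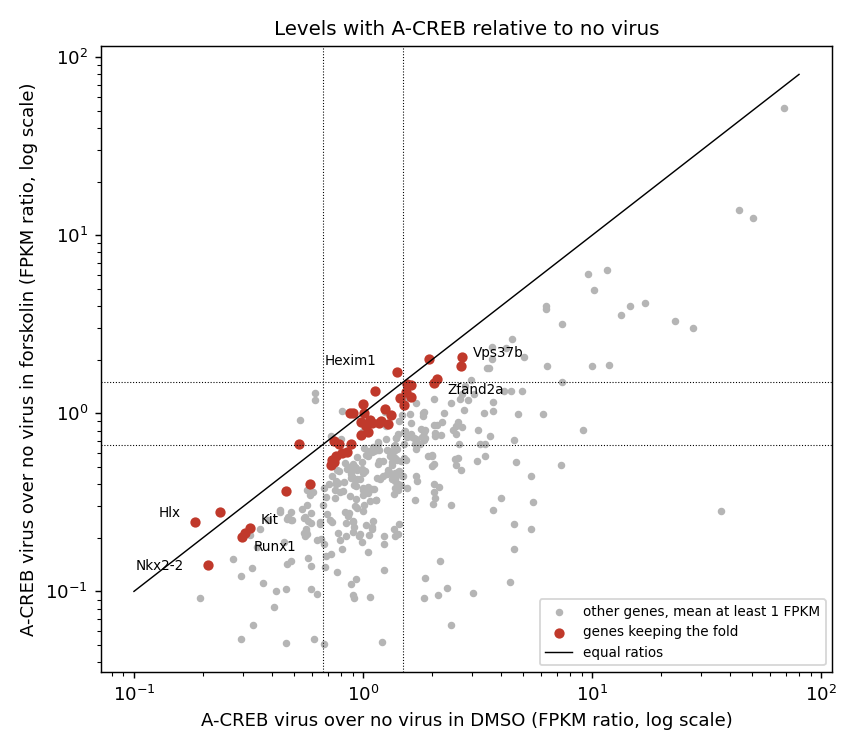
A-CREB over no virus level ratio in forskolin (vertical, log scale) against the ratio in DMSO (horizontal, log scale), with dotted lines at 1.5 times lower and 1.5 times higher. The 46 genes (red) lie near the line of equal ratios, as their rule makes them, and run along it from Nkx2-2 at 0.141 in forskolin to Vps37b at 2.07.

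A further 6 genes were within 1.5 times in DMSO and lower with A-CREB in forskolin. Vegfa, the growth factor of blood vessels, had the highest mean over the 4 libraries, with 342 FPKM in forskolin and 216 FPKM in DMSO with A-CREB, against 627 and 296 FPKM without virus. Syt4, a synaptotagmin of secretory vesicles, had 84.5 and 57.4 FPKM with A-CREB, against 159 and 77.2 FPKM without virus. Tspan13, a tetraspanin, had 95.3 and 66.3 FPKM with A-CREB, against 157 and 78.0 FPKM without virus. Their folds with A-CREB were 1.58 for Vegfa, 1.47 for Syt4 and 1.44 for Tspan13, while the forskolin levels were between 53.1% and 60.6% of the no-virus ones. Ddi2, the protease that activates the proteasome regulator NFE2L1, and Yod1, a deubiquitinase, had forskolin levels with A-CREB of 57.3% and 60.2% of those without virus. Errfi1, described above, is the last of this group.

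The 20 genes within 1.5 times under both treatments have varied roles. Ppp1r15b, a constitutive regulatory subunit of the phosphatase of eIF2alpha, had 99.1 FPKM in forskolin and 56.3 FPKM in DMSO with A-CREB, against 116 and 54.4 FPKM without virus. Dnajb9, a co-chaperone of the endoplasmic reticulum, had 136 and 87.0 FPKM with A-CREB, against 139 and 65.9 FPKM without virus. In both genes the forskolin levels of the 2 conditions lay closer together than forskolin and DMSO did within either. Mgat2, a glycosyltransferase of the Golgi that shapes N-glycans, had 26.5 and 13.3 FPKM with A-CREB, against 26.4 and 13.2 FPKM without virus, a ratio of folds of 0.996. Fem1c, a substrate receptor of a cullin ubiquitin ligase, had 33.2 and 17.7 FPKM with A-CREB, against 37.3 and 18.1 FPKM without virus. Klhl15, an adaptor of another cullin ligase, had 5.01 and 3.20 FPKM with A-CREB, against 5.56 and 2.68 FPKM without virus.

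Mcl1, a BCL2 family protein that protects from apoptosis, had 99.1 FPKM in forskolin and 54.8 FPKM in DMSO with A-CREB, against 81.0 and 37.8 FPKM without virus. Tradd, the adaptor of the TNF receptor, had 2.53 and 1.35 FPKM with A-CREB, against 3.78 and 1.72 FPKM without virus. Bik, a BH3-only protein that promotes apoptosis, had 2.42 and 1.00 FPKM with A-CREB, against 2.41 and 1.11 FPKM without virus. The smallest whole reads that fit Bik were 3 and 1 with A-CREB and 2 and 1 without virus, although any multiple of these fits too. Ripk4, a kinase related to the RIP family, had 31.2 and 16.8 FPKM with A-CREB, against 35.6 and 14.3 FPKM without virus. Rmdn3, a tether between mitochondria and the endoplasmic reticulum, had 12.5 and 5.98 FPKM with A-CREB, against 11.8 and 4.79 FPKM without virus. Trib2, a pseudokinase, had 3.99 and 1.76 FPKM with A-CREB, against 5.70 and 2.35 FPKM without virus.

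Ccrn4l, called Noct in RefSeq, encodes nocturnin, a phosphatase with rhythmic expression. It had 60.3 FPKM in forskolin and 21.8 FPKM in DMSO with A-CREB, against 53.3 and 21.8 FPKM without virus, so that the DMSO levels were the same to 3 digits. Its fold was 2.76 with A-CREB and 2.45 without virus. The other genes of the middle group were weak. Acot7, an acyl-CoA thioesterase, had forskolin levels of 4.17 FPKM with A-CREB and 4.73 FPKM without virus. Zmynd15, a repressor known from the testis, had 5.33 and 7.02 FPKM, and Best1, a chloride channel, 1.48 and 1.70 FPKM, in the same order. Snrpn, a splicing protein gene that shares its transcript with Snurf, had 6.39 and 4.81 FPKM in this order, and Tmsb4x, the actin-binding thymosin beta 4, had 1.52 and 1.51 FPKM. Reads of Snrpn and Snurf cannot be told apart, and Tmsb4x has near-identical copies in the genome, so both values are uncertain. The smallest whole reads that fit Tmsb4x with A-CREB were 3 in forskolin and 1 in DMSO, and those of Best1 were 13 and 7. The counting interval of the fold with A-CREB was 0.193 to 126 for Tmsb4x and 0.550 to 4.39 for Best1, and by the same steps 0.193 to 126 for Bik and 0.803 to 10.9 for Lrrc48. All of these intervals hold 1, and they would be narrower if the reads were a multiple of the smallest numbers that fit. Cbx8, Ccnl1 and Cebpb, given above, complete the 20.

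A further 7 genes were above the no-virus level by 1.5 times or more under 1 treatment and by less under the other, among them Zfand2a, given above. Hexim1, an inhibitor of the elongation factor P-TEFb, had 93.4 FPKM in forskolin and 33.7 FPKM in DMSO with A-CREB, against 54.8 and 24.1 FPKM without virus. It was the only gene of the 46 that was higher past 1.5 times in forskolin and not in DMSO. Srsf7, a splicing factor of the SR family, had 242 and 113 FPKM with A-CREB, against 184 and 73.6 FPKM without virus. Eif1b, a translation initiation factor, had 129 and 79.7 FPKM with A-CREB, against 104 and 49.2 FPKM without virus, and is uncertain because it closely resembles Eif1. Urb2, a ribosome biogenesis factor, had 6.92 and 4.21 FPKM with A-CREB, against 6.23 and 2.78 FPKM without virus. In these genes the DMSO level differed by a larger ratio than the forskolin level, except in Hexim1. Ska3, a kinetochore protein, had 7.91 and 4.20 FPKM with A-CREB, against 5.46 and 2.59 FPKM without virus, and Stk17b, a kinase linked to apoptosis, had 11.996 and 4.86 FPKM with A-CREB, against 8.16 and 3.13 FPKM without virus.

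Higher with A-CREB under both treatments were Vps37b, Rorb, Prosapip1 and LOC691931. Rorb, an orphan nuclear receptor of neural tissues, had 5.43 FPKM in forskolin and 2.50 FPKM in DMSO with A-CREB, against 2.70 and 1.29 FPKM without virus. Prosapip1, called Lzts3 in RefSeq and known as a synaptic scaffold protein, had 16.6 and 10.2 FPKM with A-CREB, against 10.7 and 4.86 FPKM without virus. LOC691931, called Fam241a in RefSeq, had 4.30 and 2.90 FPKM with A-CREB, against 2.33 and 1.09 FPKM without virus. The DMSO level of these genes was thus higher with A-CREB than without virus. That forskolin lay above DMSO in them is fixed by the listing and the rule, so it is no result.

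The glucose libraries were not used to choose the genes. Of the 46 genes 32 (69.6%) are listed there, and of the 318 others 236 (74.2%). At 20 mM glucose 21 of the 32 genes (65.6%) reached 2-fold with forskolin, beside 42.4% of all 1046 genes of that table with a mean of at least 1 FPKM and no 0, and 80.1% of the 236 others. The median fold of the 32 genes was 2.18 at 20 mM and 3.70 at 2.8 mM, and of the 236 others 3.24 at 20 mM and 7.18 at 2.8 mM. The fold at 20 mM was at least 0.67 times that at 2.8 mM in 16 of the 32 genes, beside 33.3% of all 1046 and 30.1% of the others. Every listed gene had a fold of at least 2 at 2.8 mM, while no such bound held at 20 mM. A lower fold at 20 mM, found in 93.2% of all 1046, is therefore partly built into the listing. Relative to 2.8 mM, the fold at 20 mM was lower by 1.5 times or more in 16 of the 32 genes (50%), beside 66% of all 1046 and 69.1% of the others. The median ratio of the folds, 20 mM over 2.8 mM, was 0.687 in the 32 genes, 0.571 in all 1046 and 0.483 in the others. Among the 81 of the others with a no-virus fold under 3, it was 0.547, and 65.4% were lower by 1.5 times or more. The 32 genes were not restricted in this way, and include Runx1, Zc3h12a and Mfsd2a with no-virus folds above 3. No test of these differences was possible with 1 library a group, and they are not called particular to the 46 genes.

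The highest ratios of the folds, 20 mM over 2.8 mM, were those of Rorb, the pseudokinase gene Trib2 and Nkx2-2. Rorb had 8.20 FPKM in forskolin and 2.44 FPKM in DMSO at 20 mM, against 2.41 and 1.06 FPKM at 2.8 mM, and its fold was 3.36 at 20 mM and 2.28 at 2.8 mM. Trib2 had 7.88 and 1.65 FPKM at 20 mM, against 6.10 and 1.61 FPKM at 2.8 mM. Nkx2-2 had 93.4 and 43.0 FPKM at 20 mM, against 192 and 95.3 FPKM at 2.8 mM, so both levels were lower at 20 mM, while the fold was 2.17 at 20 mM and 2.02 at 2.8 mM. With A-CREB both its levels and its fold were lower than without virus. These 3 were the only ones of the 32 with a higher fold at 20 mM. Cebpb had 32.5 and 4.80 FPKM at 20 mM, against 67.0 and 9.31 FPKM at 2.8 mM, and its fold was 6.77 at 20 mM and 7.202 at 2.8 mM. Vegfa had 271 and 86.8 FPKM at 20 mM, against 625 and 179.7 FPKM at 2.8 mM, and its fold was 3.12 at 20 mM and 3.48 at 2.8 mM. Runx1 had 144 and 13.9 FPKM at 20 mM, against 226 and 17.1 FPKM at 2.8 mM, and its fold of 10.3 at 20 mM was the highest of the 32. Ccrn4l, Tradd and Mgat2 had ratios of the folds of 0.926, 0.864 and 0.861.

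Other genes had a much lower fold at 20 mM than at 2.8 mM. Klhl15 had 2.45 FPKM in forskolin and 2.09 FPKM in DMSO at 20 mM, against 21.2 and 1.66 FPKM at 2.8 mM, so its fold was 1.17 at 20 mM and 12.8 at 2.8 mM. At 11 mM without virus its fold was 2.07. Syt4 had 104.98 and 25.6 FPKM at 20 mM, against 176 and 13.1 FPKM at 2.8 mM, so its fold of 4.10 at 20 mM stood beside 13.5 at 2.8 mM. Dnajb9 had 6.61 and 3.93 FPKM at 20 mM, against 41.7 and 10.3 FPKM at 2.8 mM. Ncald had 36.3 and 10.9 FPKM at 20 mM, against 258 and 30.6 FPKM at 2.8 mM. In Klhl15 the forskolin level was lower at 20 mM while the DMSO level was not, and in Ncald both were lower. Zmynd15 differed, with 10.3 and 7.79 FPKM at 20 mM, against 7.27 and 1.53 FPKM at 2.8 mM, so its lower fold of 1.32 at 20 mM went with a higher DMSO level. Prosapip1 had a fold of 1.59 at 20 mM and 4.95 at 2.8 mM.

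Zfand2a had 337 FPKM in forskolin and 83.1 FPKM in DMSO at 20 mM, against 464 and 72.1 FPKM at 2.8 mM, and its folds of 4.06 and 6.43 were above its folds at 11 mM. Mfsd2a, with 71.4 and 9.97 FPKM at 20 mM, against 237 and 25.6 FPKM at 2.8 mM, also had folds of 7.16 and 9.25 that exceeded those at 11 mM. Levels of the tables are not compared, since the scaling between them is not given. Errfi1 had folds of 4.93 at 20 mM and 6.96 at 2.8 mM, and Zc3h12a 4.09 at 20 mM and 5.47 at 2.8 mM. In the other 13 genes listed in the glucose table the ratio of folds lay between 0.433 for Ddi2 and 0.794 for Urb2.

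**Figure D5:**
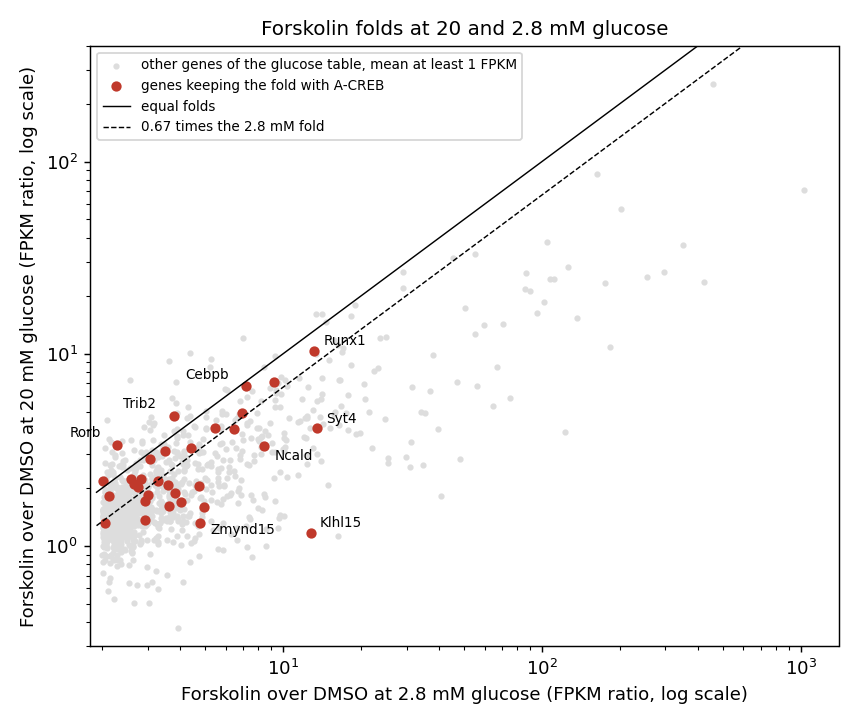
Forskolin over DMSO ratio at 20 mM glucose (vertical, log scale) against the ratio at 2.8 mM (horizontal, log scale), 1 point per gene of the glucose table with a mean of at least 1 FPKM and no 0. Of the 32 red genes, 16 lie above the dashed line at 0.67 times the 2.8 mM fold, 3 lie above the line of equal folds, and Klhl15 lies lowest at 1.17.

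In forskolin, 23 of the 32 genes were lower at 20 mM than at 2.8 mM by 1.5 times or more and Rorb alone was higher, beside 53.6% lower and 6.88% higher among all 1046 genes. The 23 genes are 71.9% of the 32, close to the 68.2% lower among the 236 others. In DMSO, 7 of the 32 genes were lower at 20 mM than at 2.8 mM by 1.5 times or more and 4 were higher, beside 15.4% lower and 28.6% higher among those 1046. The 7 are 21.9% of the 32, close to the 20.3% lower among the 236 others, of which 28.4% were higher. Among the 81 others with a no-virus fold under 3, 25.9% were lower and 21.0% higher. The 7 lower genes were Tradd, Ncald, Dnajb9, Mfsd2a, Nkx2-2, Vegfa and Cebpb. Of these, Ncald, Mfsd2a and Nkx2-2 were also lower in DMSO with A-CREB than without virus by 1.5 times or more. Kit, Runx1 and Zc3h12a were lower by that much with A-CREB only. The 4 higher genes were Zmynd15, Rorb, Syt4 and Srsf7, of which Rorb and Srsf7 were also higher in DMSO with A-CREB. Vps37b, Prosapip1, Zfand2a and Urb2 were higher by that much with A-CREB only. Among all 387 genes of the A-CREB table of this level, 15.8% were lower in DMSO with A-CREB and 35.1% higher. Overlaps of so few genes are not read as a result.

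Gene lists of pathways show where the 46 genes stand among forskolin targets. The 46 genes are 11.9% of the 387, and 15% of the 387 met the ratio, so a count of 0 or 1 in a short list is near that share and is not read as a result. Of 28 CREB early response genes of this level 1 is among the 46, Cebpb, and Atf3 met the ratio but was left out by name. The median ratio of folds of the 28 was 0.217, beside 0.411 in all 387. As said above, a ratio below 1 is partly built into the listing, which holds for every median given here. Of 6 genes of cAMP and protein kinase A signalling none is among the 46, and their median was 0.179. Fos, an AP-1 subunit of the early response list, had a ratio of 0.560, with a fold of 10.8 with A-CREB and 19.2 without virus. Of 8 genes of the integrated stress and unfolded protein responses all 8 met the ratio, with a median of 0.837. They are Ppp1r15b, Dnajb9 and Cebpb, and 5 that were left out by name, Atf3, Ddit3, Ddit4, Gdf15 and Ppp1r15a. This list was written with earlier results on these genes known, so its count is no independent evidence. Of 7 MAPK feedback genes Errfi1 is among the 46 and Dusp8 met the ratio but was left out by name (median 0.573). Of 4 growth factor ligands Vegfa is (median 0.162). None of the 46 is among 8 growth arrest genes (median 0.340), 6 neuroendocrine peptide genes (0.253), 3 clock genes (0.228), 2 sterol and lipid genes (0.286) or 1 interferon gene, Irf7 (0.312). Of 3 NF-kappaB and cytokine genes 2 met the ratio and were left out by name, Nfkbiz and Il23a (median 1.73). Of the 3 beta cell markers Nkx2-2 is among the 46, Pdx1 was left out by name with a ratio of 1.02, and MafA was below the ratio. No heat shock gene of the list of 13 is in the A-CREB table.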

How the data were processed

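The 8 libraries of INS-1 mRNA, 1 per group, were made with a NEBNext-Ultra kit, per the labels. The submitters' processing notes name TopHat2, Cuffdiff and the build rn5. Versions, annotation, strand use and scaling between libraries are not given in the sources used here. Values were deposited by the authors as FPKM. The tables hold only forskolin-induced genes, so a scaling error between libraries cannot be corrected and would shift all folds together, which is the same as moving the 0.67 bound. Total depth is unknown. Steps between low FPKM values (mean below 1) gave a relative depth of 1.35 for A-CREB forskolin, 1.08 for A-CREB DMSO and 0.905 for no-virus forskolin, with no-virus DMSO as 1. In this order, 87 of 154, 79 of 149 and 123 of 174 ratios of low values lay on the fitted steps. The step was searched over a limited range only, so these depths and the read numbers that rest on them are rough estimates. Whole reads were fitted within 0.08 reads or 1.2%, up to 15 reads, for 5 of the 46 genes.

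Folds are plain FPKM ratios with no pseudocount. The genes, lists and rules were chosen with earlier results of these data known. Named genes were all 46, the nearest genes outside the ratio, and Nr4a1, Crem, Sik1 and Fos. Names were matched to RefSeq (GRCr8), 42 by symbol, 1 by gene ID and 3 by synonym, and the first listed start of a gene was used. Functions were tested on simulated data. Python 3.11.15, numpy 2.4.6, pandas 2.3.3 and scipy 1.17.1 were used. Alternatives were pseudocounts of 0.1 and 1, no minimum mean or 5 FPKM, ratios of 0.5, 0.8 and 1, and other motif windows.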

Additional observations from a re-analysis of the deposited data

How the results depend on the processing

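The 46 genes became 50 with a pseudocount of 0.1 and 64 with 1, 68 with no minimum mean, 31 with a mean of at least 5 FPKM, 120 with a ratio of at least 0.5, 21 with 0.8 and 9 with 1. The share of genes with a fold of at least 2 with A-CREB (34.8% as reported) was 14.1% with a pseudocount of 1, and 22.5%, 61.9% and 100% with ratios of 0.5, 0.8 and 1. The 100% was fixed in advance, since every gene had a no-virus fold of at least 2. For the same reason the rise with the bound is partly built in. The share lower with A-CREB in DMSO (19.6%) was 6.25% with a pseudocount of 1 and 33.3% with a ratio of 1. The share lower in forskolin (30.4%) was 49.2% with a ratio of 0.5 and 9.52% with 0.8. The share in the glucose table (69.6%) was 52.9% with no minimum, 83.9% with 5 FPKM, 52.4% with a ratio of 0.8 and 33.3% with 1. The share with a lower fold at 20 mM (50%) was 27.3% with a ratio of 0.8 (3 of 11 genes) and 0% with 1 (0 of 3 genes). The share of promoters with a CRE (7.5%) was 0% with a ratio of 1 (0 of 7 promoters), and 45% for the half-site. Shares of so few genes are not read as a result. These settings change which genes are counted, and the cause of the shifts that the rule does not fix was not tested. At a pseudocount of 1 Zc3h12a (0.647), Runx1 (0.585) and Nkx2-2 (0.653) were below the bound of 0.67, and at 0.1 Nkx2-2 was (0.6696). At a pseudocount of 1 the ratio of folds crossed 1 for Hlx (0.795, against 1.32 as reported), Mfsd2a (0.887, against 1.18) and Stk17b (1.0003, against 0.947). The use of any listed start of a gene was an alternative chosen after seeing the data. No paired analysis was possible because each group has 1 library. The lowest genes rest on few reads, and depth in reads is unknown.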
